A study of Mus musculus with 8 samples.

Results

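The 10 genes described here encode the proteins that release calcium from the sarcoplasmic reticulum of the heart muscle cell, pump it back and exchange it with the outside: Ryr2, Casq2, Trdn, Jph2, Atp2a2, Pln, Sln, Cacna1c, Cacnb2 and Slc8a1. They were chosen by name, as the array probes whose accession belongs to 1 of these symbols, and all 10 were found among the 18217 genes with a symbol on the array, through 20 probes. Transcript levels came from whole hearts of C57BL/6J males, an inbred laboratory strain, aged 9 weeks, on one-colour Agilent whole mouse genome arrays, 1 array per heart. The satiated group comprised 4 hearts of mice with no treatment, the fasted group 4 hearts of mice that had only water for 2 days, and all were raised on the same pellet diet. The comparison addresses which transcripts of the heart differ after this fast.

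In each heartbeat the L-type calcium channel of the cell membrane (pore Cacna1c, beta subunit Cacnb2) lets in calcium that opens the ryanodine receptor, Ryr2, the release channel of the sarcoplasmic reticulum. Inside the store calcium is held by calsequestrin, Casq2, which triadin, Trdn, ties to the release channel, and junctophilin, Jph2, holds the store's membrane close to the transverse tubule. Relaxation follows when the pump SERCA2, Atp2a2, returns calcium to the store under the restraint of the small inhibitors phospholamban, Pln, and sarcolipin, Sln, while the sodium-calcium exchanger, Slc8a1, carries calcium out of the cell.

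In the fasted hearts 2 of the 10 transcripts were lower and none was higher. Casq2 fell 2.63-fold and Cacnb2 2.74-fold, so the calls fell on the store's calcium buffer and on the regulatory subunit of the L-type channel. The pump, the release channel, the channel pore, sarcolipin and the exchanger did not pass the test with the probe that stands for each gene. A change was called where limma's p, adjusted by Benjamini-Hochberg, was under 0.05 over all 20203 genes and unnamed probes tested, of which 20.2% were called, 10.3% as lower and 9.82% as higher. Over the members this is 2 lower, 0 higher and 8 not called. At an unadjusted p under 0.05, limma gave 4 lower members and 0 higher, where 17.3% of all features were lower and 16.5% higher. The share called among the 10 is near the background, so the number called does not set these genes apart. Of the 10 log2 fold changes 7 were negative and 3 positive, with a median of -0.27, against 0.00 over all features tested. The arrays lay on 2 slides that each held 2 hearts of both groups, replicates 1 and 2 on slide 1 and replicates 3 and 4 on slide 2. When slide was added as a block, 5 members were called lower (Casq2, Cacnb2, Trdn, Pln and Jph2), where 18.4% of all features were lower and 17.1% higher. With a block for the replicate number, 4 were called lower, the same genes less Jph2, where 16.7% of all features were lower.

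The upstream sequences of the called members, and of Pln, whose groups were separate and which the block fits called, are printed first. RefSeq's promoter table (GRCm38.p6) holds 11 start sites for 7 of the 10 members. Each sequence is the 250 bases before an annotated start site, 5′ to 3′ on the strand of the gene, and capitals mark matches on either strand to the motifs named after them. Cacnb2 has 2 annotated starts far apart, and the array probes do not tell which of them was used.
Casq2, chr3:102086165-102086414, plus strand: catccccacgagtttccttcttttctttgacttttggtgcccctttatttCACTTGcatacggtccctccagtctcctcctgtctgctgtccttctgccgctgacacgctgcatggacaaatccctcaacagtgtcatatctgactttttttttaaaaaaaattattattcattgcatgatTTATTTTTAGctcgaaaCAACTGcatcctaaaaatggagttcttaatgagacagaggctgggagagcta
Cacnb2, chr2:14604056-14604305, plus strand: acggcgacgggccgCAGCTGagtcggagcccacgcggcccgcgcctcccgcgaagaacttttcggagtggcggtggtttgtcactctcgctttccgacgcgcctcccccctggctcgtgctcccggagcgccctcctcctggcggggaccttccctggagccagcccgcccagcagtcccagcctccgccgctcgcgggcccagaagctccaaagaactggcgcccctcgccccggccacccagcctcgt
Cacnb2, chr2:14823842-14824091, plus strand: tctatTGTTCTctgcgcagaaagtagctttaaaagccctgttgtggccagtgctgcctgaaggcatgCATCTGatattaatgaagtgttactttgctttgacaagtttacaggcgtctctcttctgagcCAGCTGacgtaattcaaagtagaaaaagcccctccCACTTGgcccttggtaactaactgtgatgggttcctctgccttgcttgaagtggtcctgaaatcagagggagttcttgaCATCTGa
Pln, chr10:53337436-53337685, plus strand: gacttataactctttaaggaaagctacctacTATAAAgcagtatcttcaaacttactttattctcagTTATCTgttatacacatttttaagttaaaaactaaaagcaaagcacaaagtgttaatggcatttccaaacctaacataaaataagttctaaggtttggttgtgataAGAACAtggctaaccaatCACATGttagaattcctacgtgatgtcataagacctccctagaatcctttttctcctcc

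The motifs searched were the glucocorticoid receptor half-site AGAACA, the FoxO site GTAAACA, the nuclear receptor half-site AGGTCA, the E-box CANNTG, the GATA site AGATAA, the TATA box TATAAA, and the MEF2 site and CArG box, which are given by name. In the Casq2 sequence a MEF2 site lay at -69 to -60 from the start, a motif that 2.92% of the 32851 promoters of the table hold, and it lay next to an E-box at -52 to -47, a motif held by 66.2% of them, with another E-box at -200 to -195. The upstream Cacnb2 sequence had 1 match, an E-box at -236 to -231. The downstream one had 4 E-boxes and a glucocorticoid receptor half-site at -245 to -240, which 16.1% of promoters hold. The Pln sequence held the same half-site at -77 to -72, an E-box at -59 to -54, a GATA site at -183 to -178 (9.99% of promoters) and TATAAA at -219 to -214 (12.4%). None of these 4 sequences held the FoxO site (3.17%), AGGTCA (14% of promoters) or the CArG box (1.47%). These are matches of letters and not shown to be bound. No 2 of the marked matches overlapped within a sequence.

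Values per heart are given as multiples of the 75th percentile of the signal of that heart's array, so each value states how bright a gene's probe was against the rest of its own array. They describe 1 gene across hearts, since probes of different genes differ in how well they bind. A fold change is the difference of the group means of log2 values. In whole hearts, less RNA per cell and fewer cells of a type cannot be told apart.

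**Figure D1:**
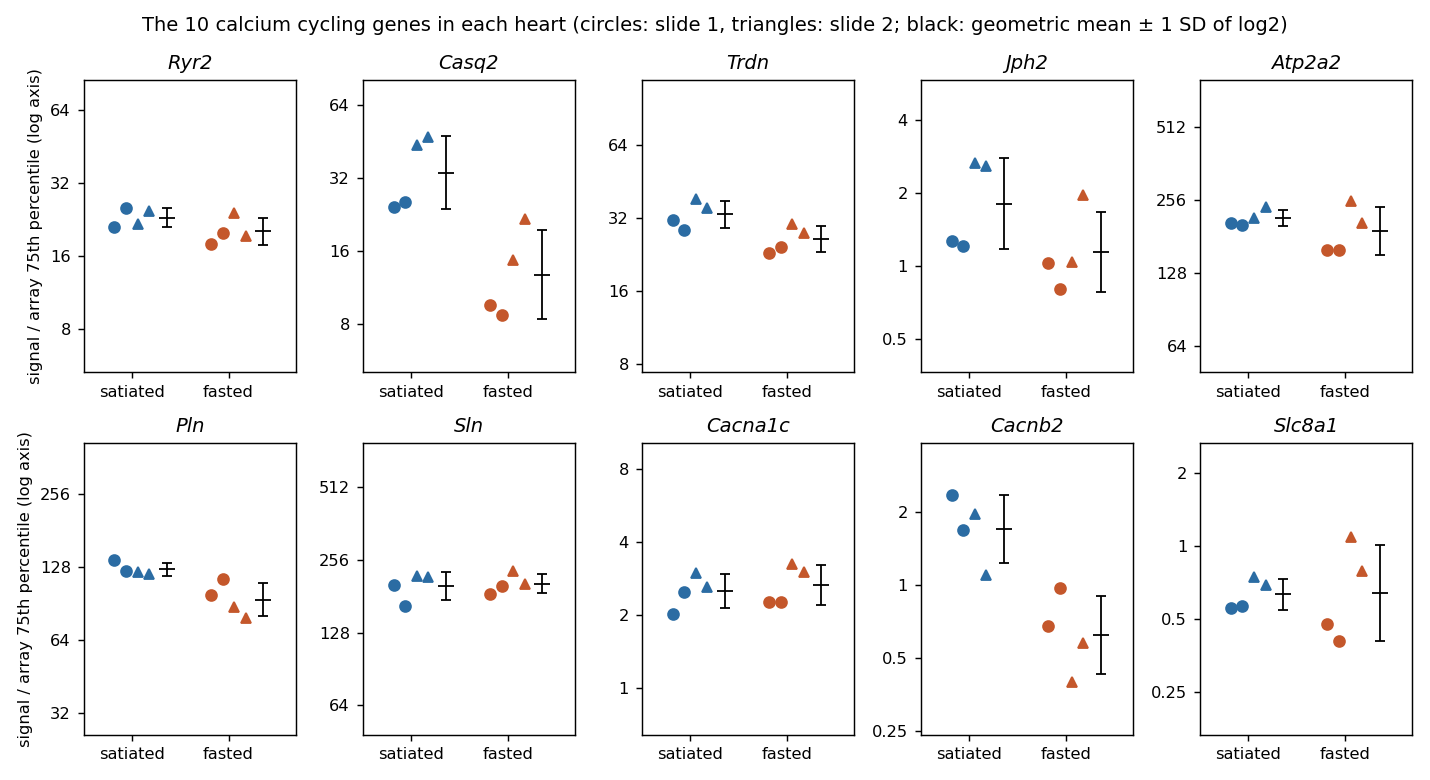
Signal of each of the 10 genes in each heart as a multiple of the array's 75th percentile, on log axes that span the same 16-fold range in every panel; circles are hearts on slide 1, triangles hearts on slide 2, and the black marks give the geometric mean ± 1 SD of the log2 values of 4 hearts. Casq2, Cacnb2 and Pln are the genes whose fasted hearts all lie below all satiated hearts.

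Among the genes of the release site, Casq2 was the one called in the fit without a block. Casq2, the cardiac calsequestrin that binds calcium inside the store, stood at 24.3, 25.4, 43.8 and 47.0 in satiated hearts 1 to 4 and at 9.54, 8.71, 14.7 and 21.6 in fasted hearts 1 to 4. Every fasted heart lay below every satiated heart, and in both groups the hearts of slide 2 were brighter than those of slide 1. The log2 fold change was -1.40 ± 0.35 (SE, 4 hearts per group; 95% interval -2.19 to -0.60; limma, adjusted p = 0.0252). It was -1.44 on slide 1 and -1.35 on slide 2, and the adjusted p was 0.000673 with the slide as a block. The call was lost when some single hearts were dropped: the adjusted p rose to 0.0658 or 0.0690 when satiated heart 3 or 4 was dropped and to 0.0656 or 0.0572 when fasted heart 1 or 2 was dropped, with log2 fold changes of -1.21 to -1.27.

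Ryr2, the release channel itself, stood at 21.0, 25.2, 21.6 and 24.4 in the satiated hearts and at 17.9, 19.9, 24.0 and 19.3 in the fasted hearts. The groups overlapped, and the log2 fold change of -0.19 ± 0.13 did not pass (adjusted p = 0.365; 95% interval -0.49 to 0.12). Its second probe gave -0.34 ± 0.43. Casq2 was also set against the release channel within each heart. The log2 difference Casq2 minus Ryr2 was 0.21, 0.01, 1.02 and 0.94 in the satiated hearts and -0.90, -1.19, -0.71 and 0.17 in the fasted hearts. All fasted hearts but the fourth were below every satiated heart, and the shift of -1.21 (2.31-fold) had an exact two-sided permutation p of 0.0571, or 0.171 after adjustment over the 6 pairs of genes compared in this way. Within each slide both fasted hearts were below both satiated hearts, and the permutations of this and the other pairs took no account of the slide. With 4 hearts against 4 this test cannot give less than 0.0286, so none of the 6 could pass after adjustment unless several reached that limit.

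Trdn, triadin, which links calsequestrin to the release channel, stood at 31.4, 28.6, 38.3 and 35.4 in the satiated hearts and at 23.1, 24.3, 30.3 and 27.7 in the fasted hearts. On each slide both fasted hearts were below both satiated hearts, while across slides the groups overlapped. The log2 fold change was -0.34 ± 0.14 (adjusted p = 0.131), and it was -0.34 on slide 1 and -0.35 on slide 2. It passed under the slide block (adjusted p = 0.0149) and under a block for the replicate number (0.0323). The other 2 Trdn probes gave -0.52 ± 0.18 and -0.19 ± 0.26, both of the same sign and neither called. Under the slide block the first of them passed (limma, adjusted p = 0.0119) and the second did not (0.241).

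Jph2, junctophilin 2, which spans the gap between the transverse tubule and the store, stood at 1.27, 1.21, 2.66 and 2.57 in the satiated hearts and at 1.03, 0.802, 1.04 and 1.95 in the fasted hearts. Within each slide the fasted hearts were lower, and the satiated hearts of slide 2 were higher than those of slide 1. The log2 fold change was -0.67 ± 0.36 (adjusted p = 0.243), with -0.45 on slide 1 and -0.88 on slide 2. The adjusted p was 0.0459 under the slide block and 0.0587 under the replicate block, so the call depended on which block was used.

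Among the pump and its inhibitors, Pln was the gene whose representative probe separated the groups. Pln, which slows the pump until it is phosphorylated, stood at 137, 123, 122 and 120 in the satiated hearts and at 98.3, 114, 87.4 and 79.0 in the fasted hearts. The groups did not overlap, as was the case for 3 of the 10 members with the fasted hearts lower, against 14.3% of all features. The log2 fold change was -0.42 ± 0.14 (1.34-fold; 95% interval -0.74 to -0.10) and missed the threshold (adjusted p = 0.0680). It passed under the slide block (0.0157) and the replicate block (0.0422), with median scaling, with normexp background correction, with the stricter filter on dim probes, with the deposited ratios and without fasted replicate 2.

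Atp2a2, the pump, was measured by 3 probes that gave different answers to the test. The brightest, which stands for the gene, was at 207, 202, 217 and 241 in the satiated hearts and at 160, 159, 253 and 207 in the fasted hearts. It was lower in both fasted hearts of slide 1 and not on slide 2, with log2 fold changes of -0.36 and 0.00 and -0.18 ± 0.17 overall (adjusted p = 0.520). The probe A_52_P569001, of transcript NM_001110140 where the brightest belongs to NM_009722, was at 2.88, 2.83, 2.85 and 2.84 in the satiated hearts and at 2.13, 1.63, 2.31 and 1.99 in the fasted hearts. Its satiated hearts were almost identical and all fasted hearts lay lower, and it was called, with -0.51 ± 0.13 (limma, adjusted p = 0.0268 over all 26480 probes). The third probe gave -0.54 ± 0.60, with satiated hearts at 19.8 and 22.1 on slide 1 and at 58.7 and 60.2 on slide 2. It was -0.74 on slide 1 and -0.35 on slide 2, and under the slide block it passed (adjusted p = 0.0169), as did the called probe (0.0117), while the brightest did not (0.251). The change of the called probe minus that of the brightest was -0.33, with an exact permutation p of 0.0857, or 0.75 after adjustment over the 10 pairs of probes compared.

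Sln, sarcolipin, a second inhibitor of the pump that is typical of the atria, stood at 201, 164, 219 and 216 in the satiated hearts and at 184, 200, 229 and 203 in the fasted hearts. The groups lay over each other, and the log2 fold change was 0.03 ± 0.14 (adjusted p = 0.897; 95% interval -0.28 to 0.34). Within each heart, Pln minus Sln on the log2 scale was -0.55, -0.41, -0.85 and -0.85 in the satiated hearts and -0.90, -0.81, -1.39 and -1.36 in the fasted hearts. Within each slide both fasted hearts were below both satiated hearts, by 0.38 and 0.53 on average, and the shift of -0.45 had an exact permutation p of 0.0857 (0.171 adjusted over the 6 pairs). Against the pump, Pln shifted by -0.24 (exact permutation p = 0.400, also after adjustment) and Sln by 0.21 (0.171, adjusted 0.257), so no change in the balance of pump and inhibitors was shown in these 8 hearts.

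The L-type channel showed the largest contrast between subunits. Cacnb2, the beta subunit that brings the pore to the membrane and tunes its gating, stood at 2.35, 1.69, 1.96 and 1.1 in the satiated hearts and at 0.682, 0.976, 0.398 and 0.577 in the fasted hearts. All fasted hearts were below all satiated hearts, the nearest being satiated heart 4 and fasted heart 2. The log2 fold change was -1.45 ± 0.32 (95% interval -2.18 to -0.73; limma, adjusted p = 0.0155), with -1.29 on slide 1 and -1.62 on slide 2. It was called whichever single heart was left out, with adjusted p up to 0.0431. The second Cacnb2 probe, at 0.182, 0.106, 0.148 and 0.109 in the satiated hearts and 0.0493, 0.0590, 0.0422 and 0.0425 in the fasted hearts, gave -1.47 ± 0.21 (adjusted p = 0.00276 over all probes). It too separated the groups, although only 2 of its fasted spots were well above background, so its fold there is uncertain.

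Cacna1c, the pore, stood at 2.02, 2.49, 2.98 and 2.62 in the satiated hearts and at 2.26, 2.26, 3.26 and 3 in the fasted hearts. The groups overlapped, with a log2 fold change of 0.09 ± 0.18 (adjusted p = 0.788; 95% interval -0.32 to 0.50), and the second probe gave 0.10 ± 0.10. Within each heart Cacnb2 minus Cacna1c on the log2 scale was 0.22, -0.56, -0.61 and -1.25 in the satiated hearts and -1.73, -1.21, -3.03 and -2.38 in the fasted hearts. Fasted heart 2 and satiated heart 4 were the only ones out of order, both fasted hearts of each slide were below its satiated hearts, and the shift of -1.54 had an exact permutation p of 0.0571 (0.171 adjusted over the 6 pairs).

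Slc8a1, the exchanger, was measured by 4 probes, of which the brightest moved in opposite directions on the slides. That probe stood at 0.554, 0.564, 0.748 and 0.688 in the satiated hearts and at 0.478, 0.407, 1.09 and 0.789 in the fasted hearts. Both fasted hearts of slide 1 were below, and both fasted hearts of slide 2 above, the satiated hearts of the same slide, with log2 fold changes of -0.34 and 0.37. Over all hearts the change was 0.01 ± 0.31 (adjusted p = 0.984; 95% interval -0.69 to 0.71). The other 3 probes gave -0.51 ± 0.35, -0.46 ± 0.39 and -0.55 ± 0.35, none called. They were negative on both slides, with -0.65, -0.90 and -0.71 on slide 1 and -0.37, -0.02 and -0.38 on slide 2. On all of them fasted heart 3 was the highest fasted heart and lay above both satiated hearts of slide 2. Fasted heart 4 was the lowest and lay below both. The last 2 of these probes had 3 of 4 fasted spots well above background. Against the pump, Slc8a1 shifted by 0.19 (exact permutation p = 0.314, adjusted 0.377). The interaction of slide and group in limma called 0 of the 20203 features (0%), with 518 at an unadjusted p under 0.05, Slc8a1 the single member among them.

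**Figure D2:**
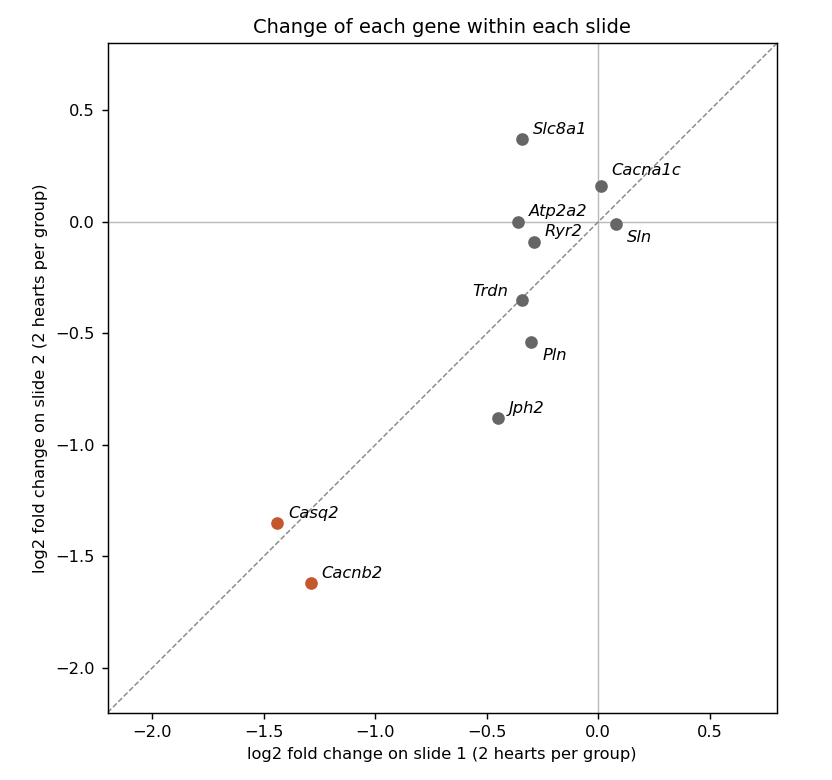
Log2 fold change, fasted minus satiated, of each gene on slide 1 (horizontal) and on slide 2 (vertical), 2 hearts per group on each; the dashed line marks equal change and orange marks the genes called over all 8 hearts. Casq2 and Cacnb2 lie far below 0 on both slides, whereas the brightest probe of Slc8a1 lies below 0 on slide 1 and above 0 on slide 2.

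Of the 20 probes of these genes, all passed the filter on dim probes, 16 had a negative log2 fold change and 4 a positive one. Fitted one by one, 4 were called lower and 0 higher, where 10.5% of all kept probes were lower: the probe of Casq2, both of Cacnb2 and 1 of Atp2a2. Several probes of a gene share its transcripts and are not independent. The genes measured by 1 probe, Casq2, Jph2, Pln and Sln, have no such second reading.

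**Figure D3:**
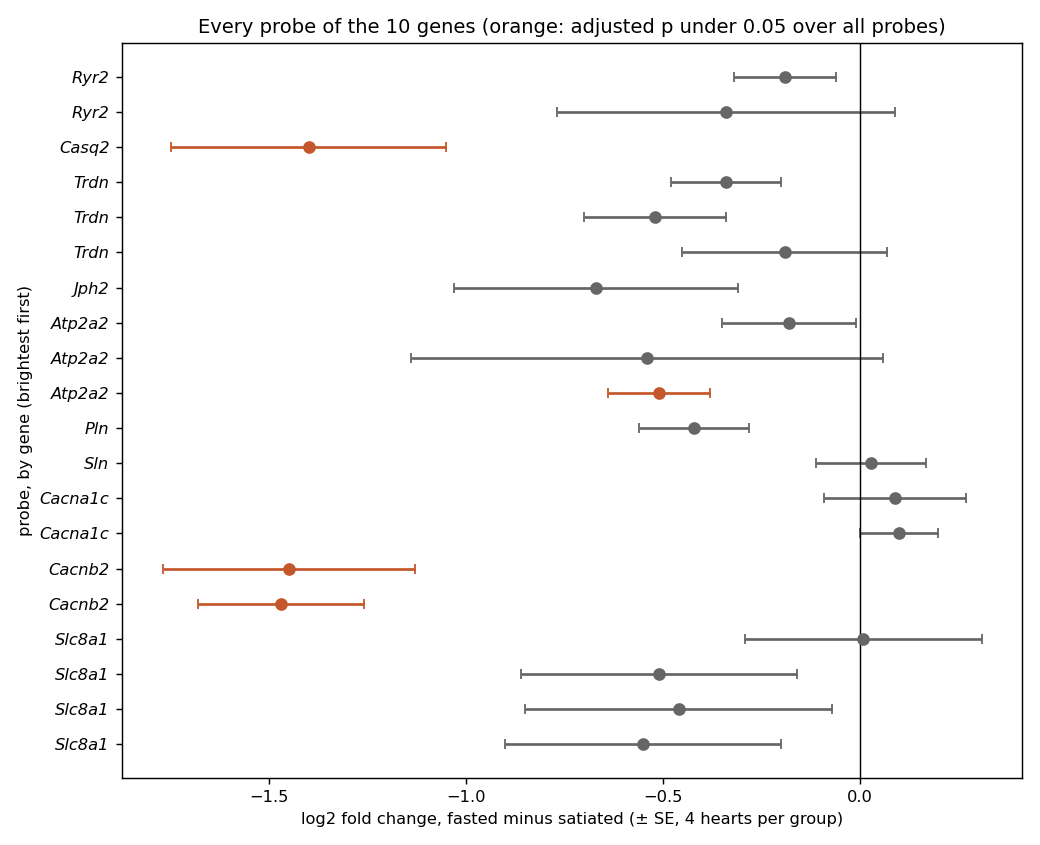
Log2 fold change ± SE of each of the 20 probes, 4 hearts per group, grouped by gene with the brightest probe first; orange marks probes called over all kept probes. The 2 probes of Cacnb2 agree near -1.46, whereas the brightest Slc8a1 probe lies at 0.01 and the other 3 near -0.5.

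Cacnb2 had the smallest p of the members. The 3 genes whose profile over the 8 hearts was nearest to it, by root mean square distance of log2 values less the satiated mean, were Rgs7bp (0.226), Mall (0.227) and Sertm1 (0.258). Rgs7bp, a protein that anchors a G-protein regulator, changed by -1.68 ± 0.27, Mall, a membrane protein of the MAL family, by -1.34 ± 0.20, and Sertm1 by -1.44 ± 0.30. They were picked for a profile like that of Cacnb2, so no test of them is given. With normexp background correction the changes were -0.70 for Rgs7bp, -1.16 for Mall and -0.37 for Sertm1, so the size for the first and the last depended on how dim signal was treated.

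Around these genes a list of 103 further calcium-handling genes was examined, of which 96 had a probe and 91 were measured. Of the 91, 10 were higher, 13 lower and 68 not called (25.3% called, against 20.2% of all features), with a median log2 fold change of -0.09. Under the slide block 12 were higher and 26 lower, where 17.1% of all features were higher and 18.4% lower. Under the replicate block 12 were higher and 25 lower, where 3115 of all 20203 features were higher and 3371 lower. Leaving out 1 heart in turn gave 4 to 8 higher and 6 to 10 lower. The calls of 9 of the 23 held whichever heart was left out: Asph, Casq1, Jph1, Tmem38b, Akap6, Cacna1g, Ank1, Saraf and Mcur1.

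**Figure D4:**
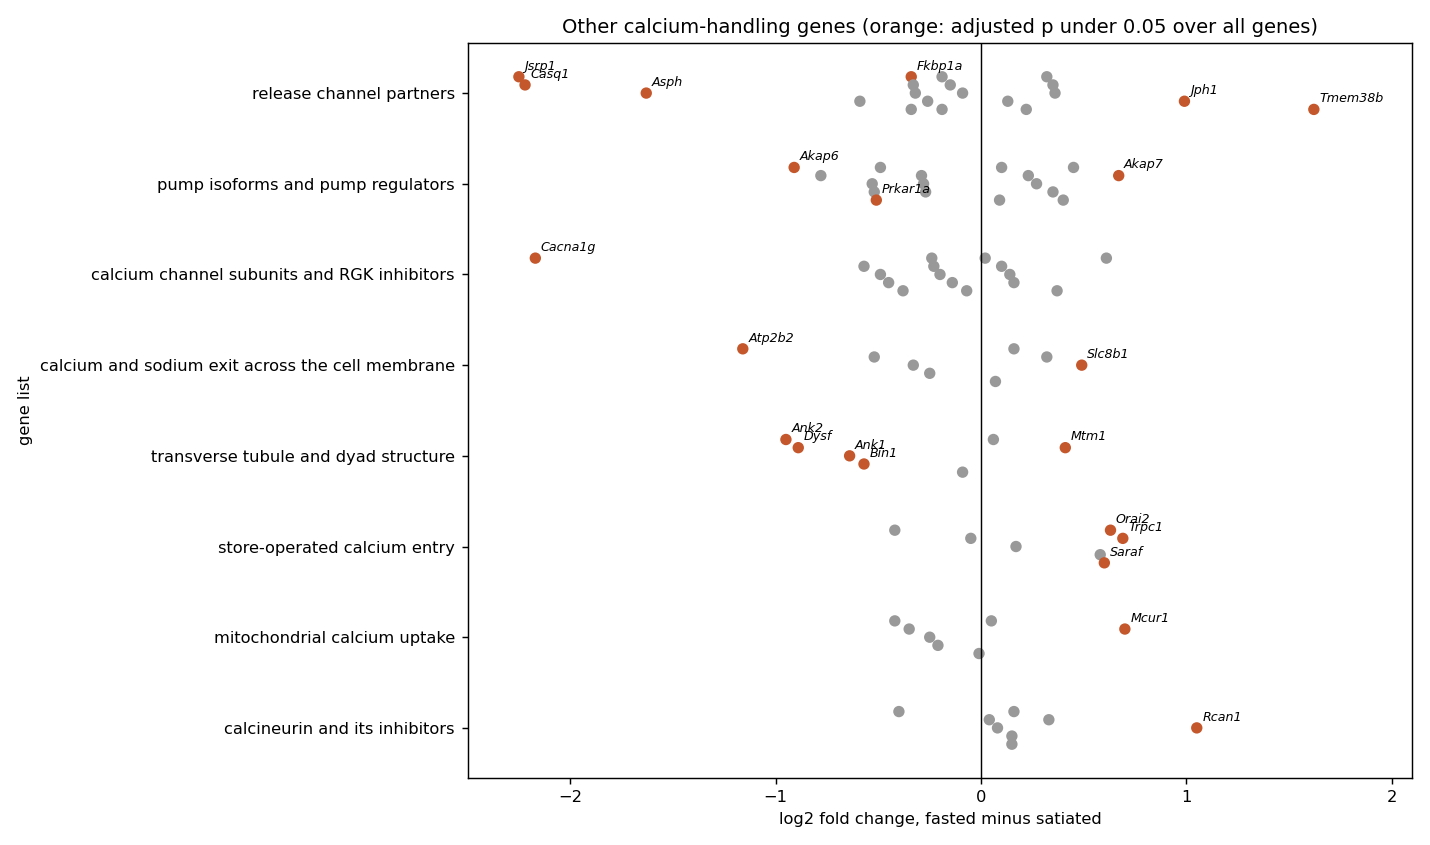
Log2 fold change, fasted minus satiated, of the measured genes of the 8 lists of further calcium-handling genes, 1 point per gene, with 1 gene left out; orange points with a name passed the adjusted p in limma over all features. The release-site list runs from Jsrp1 at -2.25, a dim probe that gave -0.60 with normexp background correction, to Tmem38b at 1.62.

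Of 20 partners of the release channel, 4 were lower and 2 higher. Asph, whose products include junctin, the partner of triadin at the release channel, stood at 8.74, 8.85, 13.8 and 12.6 in the satiated hearts and at 2.78, 3.64, 3.52 and 4.11 in the fasted hearts. The groups were far apart, with a log2 fold change of -1.63 ± 0.20 (3.1-fold; adjusted p = 0.00171). With the mean of the gene's probes it was -0.89 (adjusted p = 0.00137), and the array does not tell junctin from the other products of Asph. Casq1, the skeletal muscle calsequestrin, was low in the satiated hearts, at 0.198, 0.156, 0.367 and 0.349, and lower in the fasted ones, at 0.0398, 0.0342, 0.0609 and 0.102. Its log2 fold change was -2.22 ± 0.41 (adjusted p = 0.00806), with 3 of 4 fasted spots well above background, and it was -1.1 with normexp (0.0108). In both groups its hearts were brighter on slide 2, as for Casq2, and binding of Casq2 RNA to the Casq1 probe was not tested.

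In the opposite direction, Tmem38b, the TRIC-B potassium channel of the reticulum membrane that balances charge during calcium release, stood at 0.246, 0.251, 0.492 and 0.410 in the satiated hearts and at 0.828, 0.742, 1.60 and 1.14 in the fasted hearts. It rose 3.08-fold (1.62 ± 0.32, adjusted p = 0.0100), whereas Tmem38a, the TRIC-A channel, gave -0.15 ± 0.17 and was not called. Jph1, the junctophilin typical of skeletal muscle, stood at 0.110, 0.116, 0.110 and 0.0998 in the satiated hearts and at 0.236, 0.170, 0.254 and 0.215 in the fasted hearts. It rose 1.99-fold (0.99 ± 0.15, adjusted p = 0.00338; 0.64 with normexp), where Jph2 had a negative log2 fold change of -0.67 that did not pass. Fkbp1a, an immunophilin that binds ryanodine receptors, changed by -0.34 ± 0.10 (adjusted p = 0.0466), a call lost with normexp (0.0731) and in 7 of the 8 fits that left out a heart. Jsrp1, a small protein of the junctional reticulum, changed by -2.25 ± 0.57 (adjusted p = 0.0262), but its spots were well above background in 3 satiated hearts and 1 fasted heart only, and with normexp the change was -0.60 (0.0401). Hrc, the histidine-rich calcium-binding protein of the store, was at 113, 93.9, 170 and 178 in the satiated hearts and at 65.4, 51.7, 149 and 122 in the fasted hearts (-0.59 ± 0.37, adjusted p = 0.310, 0.0188 under the slide block and 0.0312 under the replicate block).

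Of the pump isoforms and regulators, 2 of 17 were lower and 1 higher. Akap6, the anchor that holds protein kinase A near the release channel and the nuclear envelope, stood at 21.1, 19.4, 22.2 and 23.3 in the satiated hearts and at 10.4, 10, 14 and 11.6 in the fasted hearts. It fell 1.88-fold (-0.91 ± 0.14, adjusted p = 0.00389). Akap7, a smaller anchor of the same kinase that is found at the L-type channel and at phospholamban, rose 1.59-fold (0.67 ± 0.18, adjusted p = 0.0340). Prkar1a, a regulatory subunit of the kinase, fell 1.43-fold (-0.51 ± 0.14, adjusted p = 0.0313). The Akap7 call was lost in 5 of the 8 fits that left out a heart and the Prkar1a call in 6. Atp2a1, the skeletal muscle pump, was not called (-0.53 ± 0.50, adjusted p = 0.512). Its satiated hearts were at 9.19 and 8.91 on slide 1 and at 19.5 and 22.0 on slide 2, and it passed under the slide block (0.0163) and the replicate block (0.0445).

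Among 16 calcium channel subunits and small GTPase inhibitors of the channel, 1 was lower and 0 were higher, and at an unadjusted p under 0.05 limma gave the same 1 and 0. This was Cacna1g, the pore of a T-type channel, at 0.716, 0.925, 0.977 and 0.886 in the satiated hearts and 0.180, 0.188, 0.124 and 0.334 in the fasted hearts. It fell 4.49-fold (-2.17 ± 0.28, adjusted p = 0.00212), whereas the T-type pore Cacna1h gave 0.02 ± 0.17. The other beta subunits did not pass: Cacnb1 gave 0.14 ± 0.18, Cacnb3 -0.14 ± 0.20 and Cacnb4 0.10 ± 0.28, the last with 7 of 8 spots well above background. Cacna2d1, the alpha2-delta subunit that accompanies the L-type pore, gave -0.57 ± 0.36 (adjusted p = 0.311) and passed under the slide block (0.00454) and the replicate block (0.0161).

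Of 8 genes that move calcium or sodium out across membranes, 1 was higher and 1 lower. Slc8b1, the mitochondrial sodium-calcium exchanger, rose 1.41-fold (0.49 ± 0.12, adjusted p = 0.0227), a call lost in 3 of the 8 fits that left out a heart. Atp2b2, a calcium pump of the cell membrane, fell 2.24-fold (-1.16 ± 0.31, adjusted p = 0.0343), with 5 of 8 spots well above background. With normexp it gave -0.19 and was not called (adjusted p = 0.311), nor was it in 5 of the 8 fits that left out a heart.

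Of the 7 genes of the transverse tubule and dyad, 4 were lower and 1 higher, and the median was -0.57. Ank1, an ankyrin whose small muscle form sits in the reticulum membrane, stood at 41.1, 44.6, 41.2 and 38.4 in the satiated hearts and at 29.0, 27.0, 23.4 and 26.9 in the fasted hearts. It fell 1.56-fold (-0.64 ± 0.11, adjusted p = 0.00731), and with the mean of the gene's probes it gave -0.32 and was not called (0.062). Ank2, the ankyrin that places the exchanger, fell 1.93-fold (-0.95 ± 0.25, adjusted p = 0.0324). Bin1, which bends the tubule membrane, fell 1.48-fold (-0.57 ± 0.14, adjusted p = 0.0270) and Dysf, dysferlin, a membrane repair protein, 1.85-fold (-0.89 ± 0.25, adjusted p = 0.0373). With the mean of its probes Bin1 gave -0.47 and was not called (limma, adjusted p = 0.0896). The calls of Ank2 and Bin1 were each lost in 4 of the 8 fits that left out a heart, and that of Dysf in 5. Mtm1, a phosphoinositide phosphatase of the tubule, rose 1.33-fold (0.41 ± 0.12, adjusted p = 0.0391), and this call was lost whichever heart was left out.

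Of 8 genes of store-operated calcium entry, 3 were higher. Saraf, which switches off this entry, stood at 55.9, 50.4, 57.5 and 57.8 in the satiated hearts and at 79.3, 79.8, 95.3 and 82.5 in the fasted hearts and rose 1.52-fold (0.60 ± 0.11, adjusted p = 0.00902). Orai2, a pore of this entry, and Trpc1, a cation channel, rose by 0.63 ± 0.19 and 0.69 ± 0.20 on the log2 scale (adjusted p = 0.0485 and 0.0425), with 5 of 8 Trpc1 spots well above background. With normexp they gave 0.34 and 0.35 and were not called (0.0561 and 0.181). The Orai2 call was lost in all 8 fits that left out a heart and the Trpc1 call in 6. Of 7 genes of mitochondrial calcium uptake, 1 was called: Mcur1, a regulator of the uniporter, rose 1.63-fold (0.70 ± 0.11, adjusted p = 0.00471). Of 8 genes of calcineurin and its inhibitors, 1 was called: Rcan1, an inhibitor of calcineurin that calcium signals induce, rose 2.07-fold (1.05 ± 0.27, adjusted p = 0.0272), a call lost in 6 of the 8 fits that left out a heart. Its highest value was in fasted heart 3, at 17.7, against 7 to 9.73 in the other fasted hearts.

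Markers of cell types were read in turn, with no other tissue on the arrays to compare with. The 10 cardiomyocyte markers summed to 2170 to 2710 in the satiated hearts and to 1800 to 2880 in the fasted hearts. The groups overlapped, and 1 of the 10 was called, cardiac actin Actc1 (-1.64 ± 0.13, adjusted p = 0.000355). None of the 4 ventricular markers was called in limma (1 higher and 0 lower at an unadjusted p under 0.05), and their sum was 814 to 1120 and 821 to 1190. Of the 6 atrial markers 2 were lower, Myl7 (-0.58 ± 0.14, limma, adjusted p = 0.0213) and Gja5 (-1.55 ± 0.30, adjusted p = 0.00959). With the mean of its probes Gja5 gave -0.84. The sum of the 6 was 731 to 918 in the satiated and 738 to 871 in the fasted hearts. Nppa made up most of this sum, at 430 to 514 in the satiated and 485 to 601 in the fasted hearts. Sln is itself typical of the atria, and the part of the atrial share in the results was not tested. Of the markers of pacemaker cells, Shox2 and Isl1 were not well above background in enough hearts, and Hcn4 and Tbx3 were not called.

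Of the markers of other cell types, 4 of 6 fibroblast genes were lower and 1 higher. Col3a1 changed by -2.56 ± 0.40, Lum by -1.48 ± 0.17, Col1a1 by -1.68 ± 0.41 and Col1a2 by -0.98 ± 0.25, against Dcn by 0.56 ± 0.12 (limma, adjusted p = 0.00412, 0.00137, 0.0226, 0.0298 and 0.0155). The sum of the 6 was 246 to 281 in the satiated and 239 to 289 in the fasted hearts. Dcn made up most of this sum, at 141 to 158 in the satiated and 201 to 260 in the fasted hearts. Of 5 smooth muscle markers Smtn (-1.28 ± 0.23, adjusted p = 0.00771) and Acta2 (-0.50 ± 0.13, adjusted p = 0.0292) were lower. None of the 6 endothelial, 5 macrophage and 4 adipocyte markers measured was called in limma (0 higher and 1 lower, 0 and 0, and 0 and 1 at an unadjusted p under 0.05).

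Some of the fast skeletal muscle markers set satiated heart 1 apart. Tnnt3, the fast troponin T, was at 11.4 in that heart and at 0.0495 to 0.0660 in the other satiated and 0.110 to 0.173 in the fasted hearts. Tnni2, Tnnc2, Mylpf, Actn3 and Pvalb were likewise far higher in it than in the other 7 hearts. Mybpc2 was higher in it too, at 21.7 against 6.18 to 9.89 in the others. Myh4 was not, at 200 against 151 to 216 in the other satiated and 154 to 236 in the fasted hearts. Of the 9 markers measured 1 was called lower, Myl1 (-0.62 ± 0.14, limma, adjusted p = 0.0185). Myl1 was at 39.1 in satiated heart 1 and at 28.3 to 36.4 in the other satiated hearts. Casq1 and Atp2a1, which skeletal muscle also uses, did not stand apart in satiated heart 1. Casq1 was at 0.198 in satiated heart 1 against 0.349 and 0.367 on slide 2, and Atp2a1 at 9.19 against 8.91 in satiated heart 2. Binding of Casq2 RNA to the Casq1 probe and of Atp2a2 RNA to the Atp2a1 probe was not tested. Without satiated heart 1 the log2 fold change was -1.55 for Casq2 (adjusted p = 0.0330) and -1.30 for Cacnb2 (0.0406), so both were called without it. The list of further genes then had 6 higher and 8 lower.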

How the data were processed

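Total RNA of each of the 8 hearts was Cy3-labelled for its own array, per the labels. The deposited scanner files give linear spot intensities that Agilent Feature Extraction corrected for background on each array, with no normalization across arrays, per the file headers. Slide 1 was read with version 10.5.1.1 and slide 2 with 10.7.3.1 according to the headers, where the submitters' processing notes name 9.1, so slide, scan and software version cannot be told apart. The share of probes well above background was 66.7% to 68.9% on slide 1 and 54.4% to 55.6% on slide 2, with 0 saturated spots. Precision is limited by the number of arrays. The deposited series-wide values are linear ratios, and the sources used here do not state the divisor for dim probes. They served as an alternative.

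From the processed intensities, log2 values minus the 75th percentile of each array were taken. Control spots and outlier-marked spots were left out, repeated spots were averaged by probe, and a probe was kept when well above background on 4 or more of the 8 arrays (26480 of 41174). Accessions were matched to RefSeq's GRCm38.p6 genes, for names only (1 symbol for 26690 probes, 64.8%, several for 0 and none for 14484), and the brightest kept probe stood for a gene. The groups were compared with limma 3.58.1 (R 4.3.3), two-sided, over all features, and figures were drawn with matplotlib 3.10.9. The fit was tried on simulated hearts that varied independently, without the deviations that hearts of the same slide shared here.

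Genes named are all members, up to 4 called genes with the smallest p of each list (or the smallest p where none was called), genes that a small count turns on, and the 3 nearest to the called member with the smallest p. Tmem38a, Hrc, Atp2a1, Cacna1h, Cacnb1, Cacnb3, Cacnb4, Cacna2d1, Nppa, Myh4, Mybpc2 and the skeletal markers of satiated heart 1 were named after their values were seen. The members and lists were chosen with earlier results of these data known. Beyond numbering the samples the labels do not describe the replicates, so a p-value reflects spread among these 8 samples. Same-numbered hearts deviated together from their group means (correlations of 0.331 to 0.493), as did hearts of different numbers on the same slide (0.291 to 0.522), so the replicate block is printed where it changes the call of a gene named here. Alternatives covered background correction, scaling, the filter, the probe rule, slide, replicate block, array weights, the deposited ratios and leaving out each heart. The normexp alternative used median instead of mean spot signals, which the tables hold. Results of 2 listed genes are not reported here.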

Additional observations from a re-analysis of the deposited data

Results flagged for a closer look

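In 120 groups of 4 hearts (60 genes), 8 held a heart that stood apart by Dixon's criterion, where chance gives about 1 in 20. Satiated heart 1 stood apart for 6 fast skeletal muscle genes: Tnnt3 was at 11.4 (other satiated hearts 0.0495 to 0.0660), Tnni2 at 70.4 (1.66 to 2.36), Tnnc2 at 52.0 (0.287 to 0.304), Mylpf at 9.95 (0.197 to 0.222), Actn3 at 12 (0.0526 to 0.0809) and Pvalb at 3.13 (0.0422 to 0.0464). These genes were added to the test after that heart had been seen to stand apart. For Mylpf fasted heart 4 also stood apart, at 0.210 against 0.244 to 0.250. Slc8b1, the mitochondrial sodium-calcium exchanger, was at 0.444 in satiated heart 2 against 0.395 to 0.399 in the other satiated hearts, and all fasted hearts, at 0.513 to 0.659, were above it.

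The brightest Slc8a1 probe moved in opposite directions on the slides, -0.34 on slide 1 and 0.37 on slide 2, a difference of 0.71 on the log2 scale. The interaction of slide and group had an unadjusted p of 0.0339 in limma and an adjusted p of 1, with 2 hearts per group on each slide. The other 3 Slc8a1 probes were negative on both slides. On slide 2, however, their fasted heart 3 lay above both satiated hearts and fasted heart 4 below both. What differed between the slides was not tested.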

How the results depend on the processing

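The 2 lower members became 4 with normexp, 1 with no filter on dim probes, 5 with the slide as a block, 1 on slide 1 alone, 0 on slide 2 alone, 4 with the replicate block, 4 with array weights and 1 to 2 leaving out single hearts. They became 3 with median scaling, with the stricter filter on dim probes and with the deposited ratios. The 0 higher members stayed 0 in all alternatives. The 10 higher genes of the further list became 4 with no filter, 2 on slide 1, 0 on slide 2 and 4 to 8 leaving out single hearts, and were 9 to 14 in the other alternatives. The 13 lower ones became 5 with no filter, 26 with the slide block, 8 on slide 1, 0 on slide 2, 25 with the replicate block and 6 to 10 leaving out single hearts, and were 11 to 18 in the others. All called features, 4073, became 2225 with no filter, 7177 with the slide block, 1883 on slide 1, 1 on slide 2, 6486 with the replicate block, 6150 with array weights and 2495 to 3690 leaving out single hearts, and were 3787 to 5582 in the others. Fewer hearts enter the slide and leave-one-out fits, and the cause of the other moves was not tested. Over 23 alternatives Ryr2, Casq2, Trdn, Jph2, Pln and Cacnb2 kept a negative sign, Atp2a2 did in 22, and Slc8a1, Sln and Cacna1c kept their small positive one in 15, 17 and 20. Casq2 ran from -1.84 to -1.21 and Cacnb2 from -1.67 to -1.11. Casq2 was lost in 6 (with no filter, adjusted p = 0.0628, on slide 2, 0.0888, and without 4 single hearts) and Cacnb2 in 2, the single slides (0.0564 and 0.112). Pln was gained in 7, Trdn in 4 and Jph2 in 2. The 6 differences between members were recomputed under 13 alternatives. The smallest p the permutations allow leaves little room to pass, so these p-values say nothing about stability. With the mean of a gene's probes, the shift against Atp2a2 went from -0.24 to -0.01 for Pln, from 0.19 to 0.04 for Slc8a1 and from 0.21 to 0.45 for Sln. Casq2 minus Ryr2 then gave -1.13, Cacnb2 minus Cacna1c -1.56 and Pln minus Sln -0.45. The one called reversal was Tnnt3, 1.21 without satiated replicate 1 (adjusted p = 0.0118), the highest of a range from -1.41 leaving out single hearts. Tnni2, at 0.05 over all hearts, was called higher in 1 of 23 alternatives. Its change ran from -1.20 to 1.34 over the alternatives, with a lowest adjusted p of 0.0111 in limma. Naming probes by the array's own gene names was not run, since it could not be done with the columns used here. Signal over background limits Jsrp1, Atp2b2, Trpc1, Pvalb, Actn3 and the second Cacnb2 probe. Casq1, Cacnb4, Hcn4, Tnnt3 and 2 of the Slc8a1 probes were well above background on 7 of 8 arrays. Rgs7bp, Sertm1 and Orai2 gave smaller changes with normexp.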
